A study of Mus musculus with 4 samples.

Results

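The Clcn5 intronic cluster around miR-501 is a group of 5 miRNA hairpins, Mir532, Mir188, Mir362, Mir501 and Mir500, that lie one after the other on the X chromosome inside the gene Clcn5. Its 9 mature miRNAs (both arms of miR-501, miR-532, miR-362 and miR-188, and the 3p arm of miR-500) were taken by name from the 1907 mature miRNAs listed in the small RNA-seq profile. The group was chosen by the levels of mmu-miR-501-3p, which were far lower in the 2iL libraries than in the serum libraries, so every difference between the media below is a description and carries no test. The difference between the stages was not used for the choice and was tested.

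All cells were E14Tg2A, a mouse embryonic stem (ES) cell line of strain 129/Ola. The ES serum library came from ES cells at day 0 in medium with 10% fetal calf serum and 1000 U/mL leukemia inhibitory factor (LIF). The ES 2iL library came from ES cells at day 0 that had been switched for several passages to a serum-free medium with the MEK inhibitor PD0325901 (1 µM), the GSK3 inhibitor CHIR99021 (3 µM) and 1000 U/mL LIF. The ELA serum and ELA 2iL libraries came from epiblast-like aggregates (ELA), that is, ES cells of either medium that had floated as aggregates for 2 days in a chemically defined minimal medium without serum, LIF or inhibitors, so in ELA the medium name gives the history of the cells. Each of the 4 groups had 1 library, and variation between experiments could not be measured.

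A miRNA gene is transcribed as part of a longer RNA that folds into a hairpin. Drosha and Dicer cut the hairpin into a short duplex, and usually one of its strands, the 5p or the 3p arm, is loaded into an Argonaute protein and kept while the other is degraded. Bases 2 to 8 of the loaded arm, the seed, carry most of the pairing with target mRNAs, so arms with the same seed are grouped in one family. Hairpins in one intron can come from one primary transcript, often that of the host gene, yet each mature arm is further shaped by its own cutting, loading and decay. Clcn5 encodes a chloride/proton exchanger of endosomes that is best known from the kidney. ES cells in 2iL are held in ground-state pluripotency, whereas ELA stand for the primed state of the epiblast.

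The mature sequences are shown because the arms of this cluster resemble each other closely, and the level of mmu-miR-501-3p depends on telling its reads from those of its neighbours. They are RefSeq sequences (table of build GRCm38.p6), which held 8 of the 9 members, written 5′ to 3′ with the seed in capitals. The 9th member is mmu-miR-532-5p.
mmu-miR-501-3p: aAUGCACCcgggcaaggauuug
mmu-miR-500-3p: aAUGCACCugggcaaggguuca
mmu-miR-362-3p: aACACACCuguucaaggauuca
mmu-miR-501-5p: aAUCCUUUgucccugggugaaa
mmu-miR-362-5p: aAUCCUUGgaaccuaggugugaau
mmu-miR-188-5p: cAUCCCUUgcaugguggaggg
mmu-miR-188-3p: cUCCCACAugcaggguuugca
mmu-miR-532-3p: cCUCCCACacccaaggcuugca

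Among these 8 sequences the only seed held by 2 members was AUGCACC, shared by mmu-miR-501-3p and mmu-miR-500-3p. These 2 arms had 18 of 22 bases in common and differed by C9U, A18G, U21C and G22A, counted from 1 at the 5′ end, with the base of mmu-miR-501-3p first. Against mmu-miR-362-3p, mmu-miR-501-3p had 15 of 22 bases in common. The seed of mmu-miR-362-5p was that of mmu-miR-500-5p, the other arm of miR-500. The seed of mmu-miR-362-3p was that of mmu-miR-329-3p, and the seed of mmu-miR-188-5p was that of mmu-miR-7061-3p. Each of the 8 sequences had 1 exact match in mm9, the build to which the reads had been mapped, and only mmu-miR-188-3p had another site within 1 mismatch. How the authors' mapping treated mismatches and reads with several matches is not given in the sources used here.

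By the mm9 matches and annotation, all 5 hairpins lie on the minus strand of chromosome X, the strand of Clcn5 (chrX:6730936-6896484). In the direction of transcription they run Mir532 (chrX:6825528-6825623), Mir188 (chrX:6825115-6825182), Mir362 (chrX:6819108-6819172), Mir501 (chrX:6818369-6818477) and Mir500 (chrX:6814809-6814900). The row spans 10815 bp. Mir532 and Mir188 stand 345 bp apart, Mir362 follows after 5942 bp, Mir501 after a further 630 bp and Mir500 after a further 3468 bp. All 5 hairpins are intronic in 3 of the 5 annotated Clcn5 transcripts and exonic in none of them. In one of these transcripts, Clcn5-003, they share intron 2 of 6. The mature mmu-miR-501-3p is encoded at chrX:6818396-6818417 and its partner mmu-miR-501-5p at chrX:6818433-6818454.

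Levels are given in RPM, reads scaled to the same sum of miRNA reads in each library, as deposited. An RPM value is a share of the miRNA reads of a library, so it also depends on all other miRNAs, and it is a mean over a bulk culture, in which fewer cells of a type and less RNA per cell cannot be told apart. The reads behind the values could be recovered and ranged from 587363 in ELA 2iL to 8056984 in ES serum, so that 3 reads, taken as the limit of detection, equal 0.372 RPM in ES serum and 5.11 RPM in ELA 2iL. Of the 9 members, 9 had reads in all 4 libraries and 6 had more than 3 reads in each. The ES cell miRNA mmu-miR-295-3p was between 35327 and 126073 RPM in the 4 libraries, and mmu-miR-302d-3p, which marks primed cells, was higher in ELA than in ES cells in serum (16726 against 2451 RPM) and in 2iL (2930 against 27.5 RPM). The description field of the labels exchanges ES 2iL and ELA serum against the titles, source names and column names. The groups follow the titles here, and mmu-miR-302d-3p is higher in ELA only under that reading.

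mmu-miR-501-3p was the most abundant member in serum and a minor one in 2iL. Its level was 687 RPM in ES serum (5536 reads), 26.7 RPM in ES 2iL (74 reads), 777 RPM in ELA serum (3349 reads) and 30.6 RPM in ELA 2iL (18 reads). Both serum libraries were high and both 2iL libraries were low, whatever the stage. It stood at rank 81 of 1034 miRNAs with reads in ES serum and at rank 82 of 930 in ELA serum, but at rank 342 of 969 in ES 2iL and 320 of 691 in ELA 2iL.

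The level in serum was 25.7-fold that in 2iL in ES cells (exact 95% interval on the reads 20.4 to 32.8) and 25.4-fold in ELA (16.0 to 42.8). The interval of each stage held the value of the other, and the ELA, kept for 2 days in a common medium, differed as the ES cells of origin did. In the order of the levels, ELA serum stood above ES serum by 1.13-fold (1.08 to 1.18, counting error only). At the low end, ELA 2iL and ES 2iL could not be told apart at this depth (ratio 1.15, 0.644 to 1.94).

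On the scale of log2(RPM + 1), with the mean taken over both stages, the difference of mmu-miR-501-3p (2iL minus serum) was −4.63. Over the 302 miRNAs whose log2(RPM + 1) averaged 5 or more, the median difference was 0.42, and mmu-miR-501-3p held rank 2 from the lowest. In ES cells it held rank 10 from the lowest and in ELA rank 1. A difference of at least 1 downward was found for 13.2% of these 302 miRNAs, for 17.5% in ES cells alone and for 8.61% in ELA alone. Only 2 members, mmu-miR-501-3p and mmu-miR-532-5p, were abundant enough to be among the 302.

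**Figure D1:**
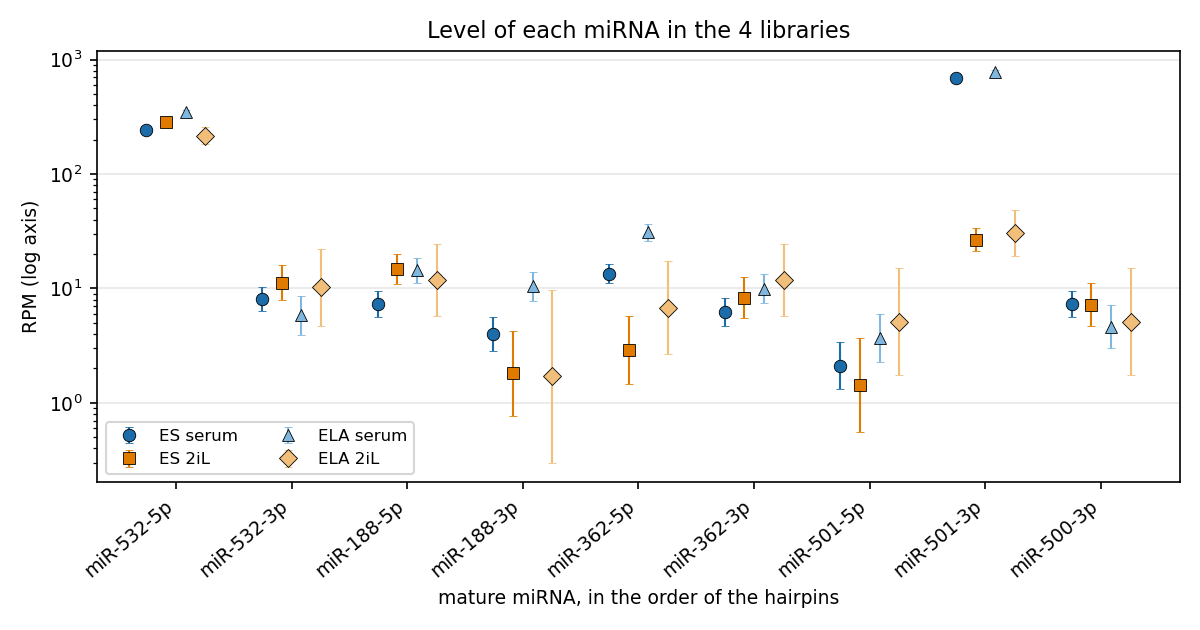
Level of the 9 mature miRNAs of the cluster in the 4 libraries (RPM, log axis), in the order of their hairpins along Clcn5. Each point is 1 library and bars are Wilson 95% intervals for counting error. mmu-miR-501-3p sits at 687 and 777 RPM in the serum libraries and at 26.7 and 30.6 RPM in the 2iL libraries, whereas mmu-miR-532-5p sits between 216 and 347 RPM in all 4.

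mmu-miR-532-5p, the leading arm of the first hairpin of the row, was the other abundant member. It measured 241 RPM in ES serum (1945 reads), 287 RPM in ES 2iL (793 reads), 347 RPM in ELA serum (1495 reads) and 216 RPM in ELA 2iL (127 reads). The 4 levels lay close together, at ranks 148, 143, 123 and 166, and the medium with the higher level was 2iL in ES cells and serum in ELA. Serum over 2iL was 0.842 in ES cells (0.775 to 0.916) and 1.60 in ELA (1.34 to 1.94). The mean log2 difference (2iL minus serum) was −0.22. In ES cells the difference of 0.25 turned to −0.24 with TMM factors, −0.16 with DESeq2 size factors and −0.03 with totals that leave out the 5 most abundant miRNAs, whereas in ELA it stayed below 0 under all of these (−0.64 to −1.16).

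Set against this neighbour in the same library, which removes the scaling between libraries, mmu-miR-501-3p had 285 reads per 100 reads of mmu-miR-532-5p in ES serum and 224 in the ELA of that medium. In 2iL it had 9.33 in ES cells and 14.2 in ELA. The order of the pair was thus turned over between the media at both stages.

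The partner arm mmu-miR-501-5p was low in all 4 libraries and close to the limit of 3 reads in both 2iL libraries. It had 2.11 RPM in ES serum (17 reads), 1.45 RPM in ES 2iL (4 reads), 3.71 RPM in ELA serum (16 reads) and 5.11 RPM in ELA 2iL (3 reads). These levels did not part by medium. Serum over 2iL was 1.46 in ES cells (0.476 to 5.96) and 0.727 in ELA (0.208 to 3.89). Both intervals include 1 and end below those of mmu-miR-501-3p from the same hairpin, which start at 20.4 and 16.0.

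Among the remaining members, mmu-miR-362-5p had the next largest difference between the media in the mean over both stages, though not in ELA alone. It was at 13.4 RPM in ES serum (108 reads), 2.89 RPM in ES 2iL (8 reads), 30.9 RPM in ELA serum (133 reads) and 6.81 RPM in ELA 2iL (4 reads). At each stage the serum library was the higher, by 4.64-fold in ES cells (2.27 to 11) and by 4.53-fold in ELA (1.73 to 16.9). Its hairpin, Mir362, is the nearer of the 2 neighbours of Mir501.

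The partner arm mmu-miR-362-3p was a little higher in 2iL at both stages by RPM, within counting error, and changed sign with TMM factors (−0.06 in ES cells and −0.09 in ELA on the log2 scale). It had 6.21 RPM in ES serum (50 reads), 8.31 RPM in ES 2iL (23 reads), 9.98 RPM in ELA serum (43 reads) and 11.9 RPM in ELA 2iL (7 reads). The ratio of 2iL to serum was 1.34 in ES cells (0.780 to 2.24) and 1.19 in ELA (0.453 to 2.68).

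mmu-miR-188-3p had 3.97 RPM in ES serum (32 reads), 1.81 RPM in ES 2iL (5 reads), 10.4 RPM in ELA serum (45 reads) and 1.70 RPM in ELA 2iL (1 read). Serum was higher at both stages, with an interval that spanned no difference in ES cells (2.20-fold, 0.850 to 7.23) and a very wide one in ELA (6.13-fold, 1.05 to 248), where 2iL rests on a single read. Its partner mmu-miR-188-5p had 7.32 RPM in ES serum (59 reads), 14.8 RPM in ES 2iL (41 reads), 14.4 RPM in ELA serum (62 reads) and 11.9 RPM in ELA 2iL (7 reads). In ES cells this arm was 2.02-fold higher in 2iL (1.32 to 3.07), and in ELA the ratio of 2iL to serum was 0.828 (0.320 to 1.81). The higher level in ES 2iL held under each scaling, with log2 differences from 0.48 to 0.93.

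mmu-miR-500-3p shares the seed of mmu-miR-501-3p and so belongs to the same seed family. Its level was 7.32 RPM in ES serum (59 reads), 7.23 RPM in ES 2iL (20 reads), 4.64 RPM in ELA serum (20 reads) and 5.11 RPM in ELA 2iL (3 reads). Serum and 2iL were nearly equal at both stages, at 1.01-fold in ES cells (0.601 to 1.78) and 0.909-fold in ELA (0.269 to 4.78). In ES cells the upper bound lies below the lower bound of 20.4 for mmu-miR-501-3p, and in ELA 4.78 lies below 16.0.

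mmu-miR-532-3p, the minor arm of the first hairpin, had 8.07 RPM in ES serum (65 reads), 11.2 RPM in ES 2iL (31 reads), 5.80 RPM in ELA serum (25 reads) and 10.2 RPM in ELA 2iL (6 reads). By RPM the 2iL library was the higher at both stages, by 1.39-fold in ES cells (0.875 to 2.16) and 1.76-fold in ELA (0.591 to 4.40), and both intervals span no difference. The other arm of miR-500, mmu-miR-500-5p, is not a member and had 1 read in ES serum, 2 in ELA serum and 0 in both 2iL libraries.

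Along the row of hairpins, the members that were lower in 2iL by at least 1 on the log2 scale (mean of both stages) were mmu-miR-188-3p (−1.45), mmu-miR-362-5p (−1.96) and mmu-miR-501-3p (−4.63). Each came from a different hairpin, and the partner arm of each was within 1 of no difference (mmu-miR-188-5p 0.34, mmu-miR-362-3p 0.30 and mmu-miR-501-5p 0.01). The remaining members were mmu-miR-532-5p at −0.22, mmu-miR-532-3p at 0.58 and mmu-miR-500-3p at 0.05. Beside these 3 of 9 members stands a share of 15.7% of the 599 miRNAs that had at least 10 reads in at least 2 libraries. All 9 members passed this filter, but mmu-miR-362-5p, mmu-miR-188-3p and mmu-miR-501-5p reached 10 reads only in the serum libraries. As mmu-miR-501-3p was used to choose the group, the count of 3 is a description and no fair comparison with that share. No member was higher in 2iL by at least 1, against 24.5% of the 599. The median over the members was 0.01, beside 0.32 over the 599. The 3 lower members were the same under each of the 4 scalings tried, but the sign of the small differences was not stable. With RPM 4 members were below 0, with TMM factors 8, with DESeq2 size factors 8 and with totals that leave out the 5 most abundant miRNAs 6. Relative to the median of 0.42 over the 302 miRNAs, mmu-miR-501-3p was at −5.05, mmu-miR-362-5p at −2.38, mmu-miR-188-3p at −1.87 and mmu-miR-532-5p at −0.64, and the other 5 members lay between −0.41 (mmu-miR-501-5p) and 0.15 (mmu-miR-532-3p).

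Counting error alone gave the following picture. In ES cells 2 members were lower in 2iL with an exact 95% interval clear of no difference (29.2% of the 599), 2 were higher (50.9%) and 5 had an interval that spanned it (19.9%). In ELA 4 were lower (15.9%), 0 were higher (36.7%) and 5 spanned it (47.4%). The counts of lower members are no fair comparison with these shares. They include mmu-miR-501-3p, used for the choice, and mmu-miR-362-5p and, in ELA, mmu-miR-188-3p, which passed the read filter only through the serum libraries. The shallow ELA 2iL library left 7 of the 9 members with 7 reads or fewer there. mmu-miR-501-3p and mmu-miR-362-5p were lower at both stages.

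**Figure D2:**
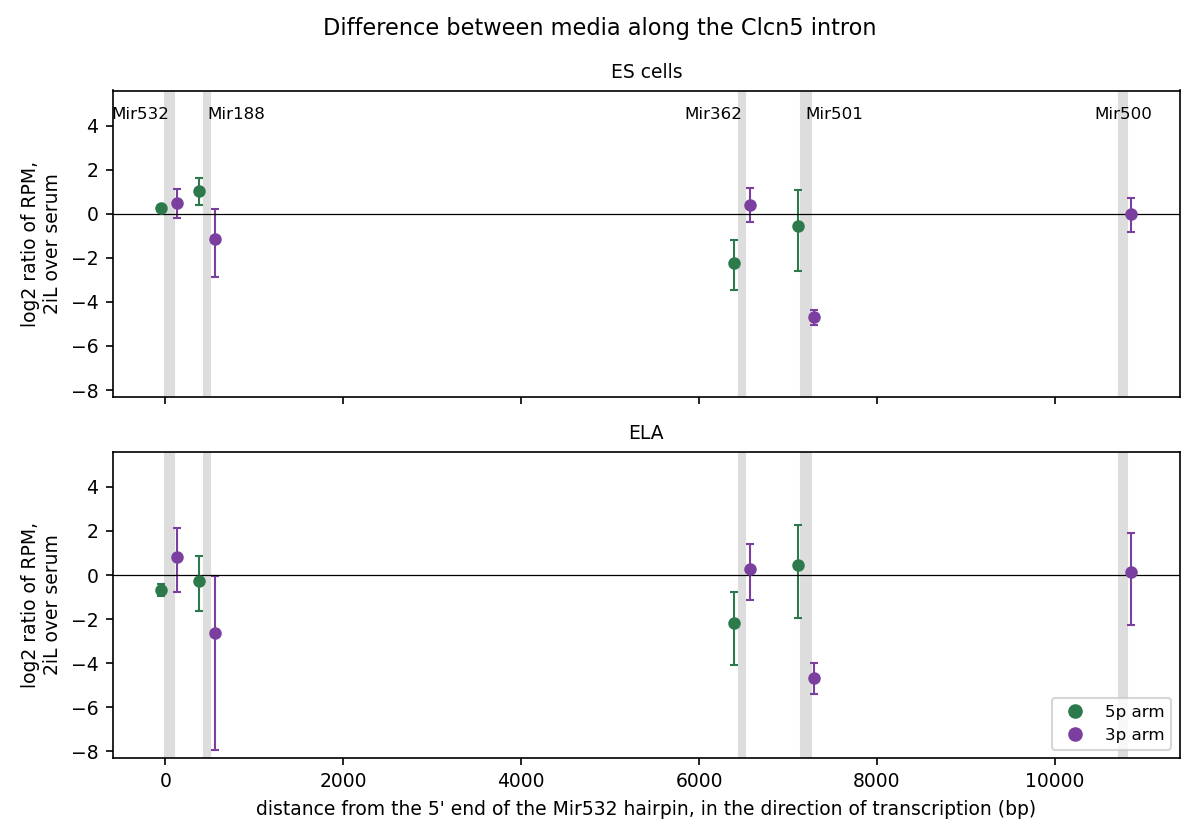
Ratio of RPM in 2iL over serum (log2 axis) for the members, plotted against the distance of their hairpins from the 5′ end of Mir532 (bp), in ES cells above and in ELA below. Grey bands are hairpins, the 5p and 3p points are drawn just beside their band, and bars are exact 95% counting intervals. mmu-miR-501-3p stands at −4.68 in ES cells and −4.66 in ELA, while mmu-miR-500-3p, the last of the row, stands at −0.02 and 0.14.

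mmu-miR-501-3p had the lowest value of the members at each stage, and no other of the 302 miRNAs was as low in ELA. In the plot of the difference in ES cells against that in ELA, mmu-miR-501-3p was at −4.63 and −4.62, and the miRNAs that lay below it in ES cells were nearer to 0 in ELA. mmu-miR-362-5p was likewise close in both, at −1.89 and −2.03. mmu-miR-188-3p was at −0.82 in ES cells and −2.08 in ELA.

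**Figure D3:**
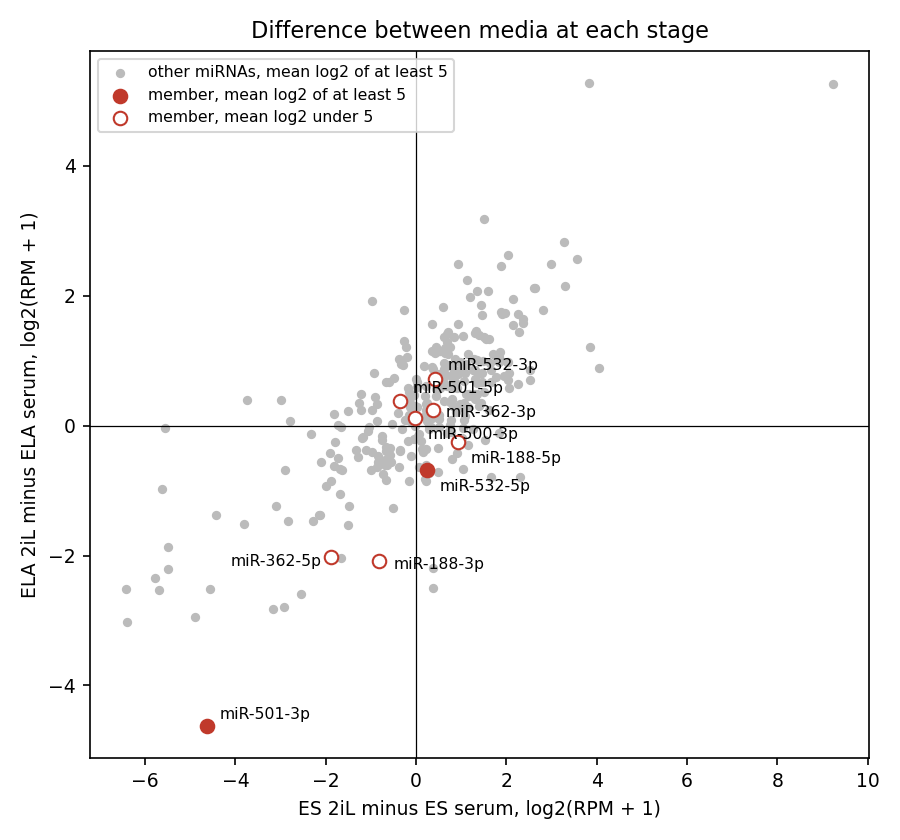
Difference between the media (2iL minus serum, log2(RPM + 1)) in ES cells on the horizontal axis and in ELA on the vertical axis. Each point is 1 miRNA, with the members in red (filled where log2(RPM + 1) averages 5 or more) and the other miRNAs that reach this mean in grey. mmu-miR-501-3p is the lowest point in ELA at −4.62, and the other members except mmu-miR-362-5p and mmu-miR-188-3p lie within 1 of 0 on both axes.

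Summed over the 9 members, the cluster took 0.0977% of the miRNA reads in ES serum (Wilson 95% interval 0.0956 to 0.0999), 0.0361% in ES 2iL (0.0339 to 0.0384), 0.120% in ELA serum (0.117 to 0.124) and 0.0300% in ELA 2iL (0.0259 to 0.0347). The share in serum was 2.71 times that in 2iL in ES cells (2.53 to 2.89) and 4.02 times in ELA (3.46 to 4.70). The sum rested on its 2 abundant arms. mmu-miR-501-3p made up 70.3% of the cluster in ES serum and 64.6% in the ELA of that medium, but 7.41% in ES 2iL and 10.2% in ELA 2iL, where mmu-miR-532-5p made up 79.4% and 72.2%.

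Without mmu-miR-501-3p, the sum of the other 8 members in 2iL was by RPM 1.15 times the serum level in ES cells (1.07 to 1.25) and 0.630 times that level in ELA (0.532 to 0.742). In ES cells the direction depended on the scaling, since the ratio was 0.821 with TMM factors, 0.872 with DESeq2 size factors and 0.950 with totals that leave out the 5 most abundant miRNAs. Without mmu-miR-532-5p instead, the share in serum was 9.88 times that in 2iL in ES cells (8.60 to 11.4) and 10.3 times in ELA (7.75 to 13.9).

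The use of the arms is a ratio within 1 library and does not depend on the scaling between libraries. The hairpin of miR-501 gave almost only its 3p arm in serum, 99.7% of the reads of both arms in ES serum (Wilson 95% interval 99.5 to 99.8) and 99.5% in ELA serum (99.2 to 99.7). In 2iL the 3p share was 94.9% in ES cells (87.5 to 98.0, 78 reads) and 85.7% in ELA (65.4 to 95, 21 reads). The intervals of serum and 2iL did not overlap at either stage. As a ratio, there were 326 and 209 reads of the 3p arm per read of the 5p arm in serum (ES cells and ELA), against 18.5 and 6 in 2iL.

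The hairpin of miR-362 gave mainly its 5p arm in serum and mainly its 3p arm in 2iL. The 3p share was 31.6% in ES serum (24.9 to 39.3), 74.2% in ES 2iL (56.8 to 86.3), 24.4% in ELA serum (18.7 to 31.3) and 63.6% in ELA 2iL (35.4 to 84.8, 11 reads). Serum and 2iL were apart at both stages by these intervals, with the 3p share higher in 2iL, opposite in direction to miR-501.

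In miR-188 the 3p share was 35.2% in ES serum (26.1 to 45.4), 10.9% in ES 2iL (4.73 to 23.0), 42.1% in ELA serum (33.1 to 51.5) and 12.5% in ELA 2iL (2.24 to 47.1, 8 reads). The 2iL libraries had the lower 3p share, with intervals that were apart in ES cells and overlapped in ELA. The hairpin of miR-532 gave its 5p arm throughout, with a 3p share between 1.64% and 4.51%. miR-500 gave its 3p arm throughout, with 98.3% in ES serum, 90.9% in ELA serum and 100% of 20 and 3 reads in ES 2iL and ELA 2iL. Because these shares hold arms whose difference between the media was known when the group was chosen, they carry no test.

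**Figure D4:**
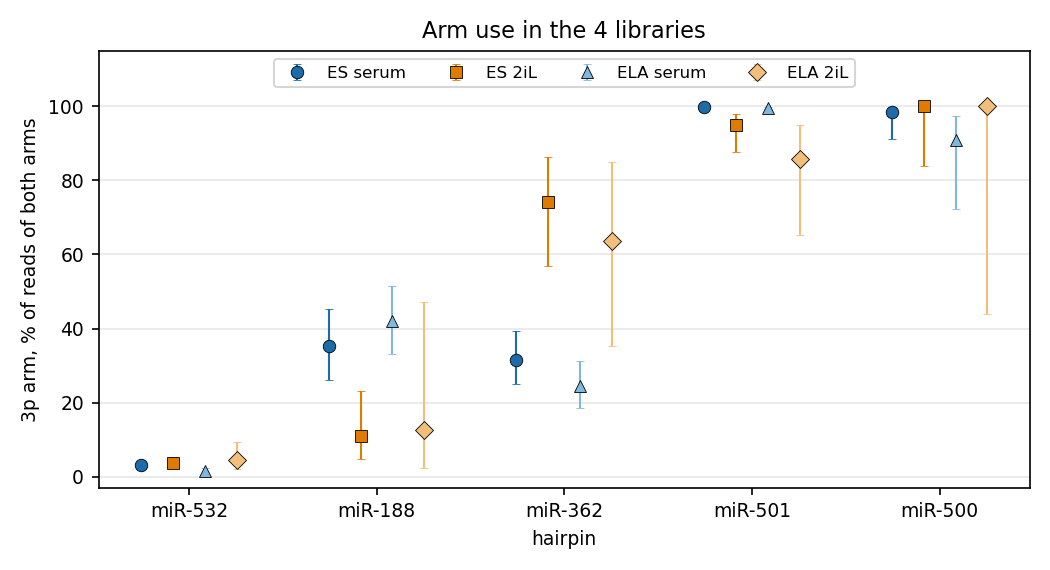
Reads of the 3p arm as a percentage of the reads of both arms of each hairpin in the 4 libraries, with Wilson 95% intervals for counting error. miR-362 has 31.6% and 24.4% in the serum libraries against 74.2% and 63.6% in the 2iL libraries, miR-188 goes the other way, and miR-532 stays at or below 4.51%.

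The difference between the stages (ELA minus ES) was tested for all 599 miRNAs with limma on log2(RPM + 1), with the medium as a second term. After Benjamini-Hochberg adjustment 0 of the 9 members and 0 of the 599 miRNAs (0.0%) passed an adjusted p of 0.05. At an unadjusted p under 0.05 there were 0 members and 125 of the 599 (20.9%). With TMM factors there was 1 member, beside 145 of the 599, and with DESeq2 size factors 1 member, beside 158 of the 599. It was mmu-miR-362-5p in both (limma unadjusted p = 0.0412 and 0.0388, adjusted 0.184 and 0.158). edgeR on the recovered reads called 0 members and 39 miRNAs (6.51%), and DESeq2 called 0 members and 50 miRNAs (8.35%), with no adjusted p given for mmu-miR-501-5p.

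mmu-miR-501-3p differed little between the stages in either medium, 0.18 in serum and 0.19 in 2iL, with a fitted difference of 0.18 ± 0.44 (SE, limma adjusted p = 0.825). The 95% interval ran from −0.95 to 1.32, and a change within these bounds was not detectable with 4 libraries. For mmu-miR-532-5p the fitted difference was 0.06 ± 0.49 (−1.21 to 1.32, limma adjusted p = 0.951). This arm was higher in ELA in serum (0.52) and lower in ELA in 2iL (−0.40).

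In the limma fit over both media, the member with the largest difference between the stages was mmu-miR-362-5p, at 1.08 ± 0.44 (−0.07 to 2.22, limma adjusted p = 0.234). It was higher in ELA by 1.15 in serum and by 1.01 in 2iL. Within 1 medium the largest values were those of mmu-miR-188-3p in serum (1.20) and mmu-miR-501-5p in 2iL (1.32). In the fit mmu-miR-501-5p followed with 0.96 ± 0.47 (−0.26 to 2.18, limma adjusted p = 0.292), but its values rest on 3 to 17 reads. The other 5 members lay between −0.50 (mmu-miR-500-3p) and 0.57 (mmu-miR-188-3p), with limma adjusted p from 0.502 to 0.757. The median over the members was 0.30, beside −0.22 over the 599 miRNAs. A difference of at least 1 upward was measured for 1 of the 9 members, against 11.9% of the 599, and downward for 0 members, against 21.7%.

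By counting error within 1 medium, 6 members were higher in ELA in serum with an interval clear of no difference (33.1% of the 599), 0 were lower (37.7%) and 3 spanned it (29.2%). The 6 were mmu-miR-501-3p, mmu-miR-532-5p, both arms of miR-362 and both arms of miR-188. In 2iL 0 were higher (25.9%), 1 was lower (35.1%), namely mmu-miR-532-5p, and 8 spanned it (39.1%). These intervals compare single libraries and are no test of the stage.

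**Figure D5:**
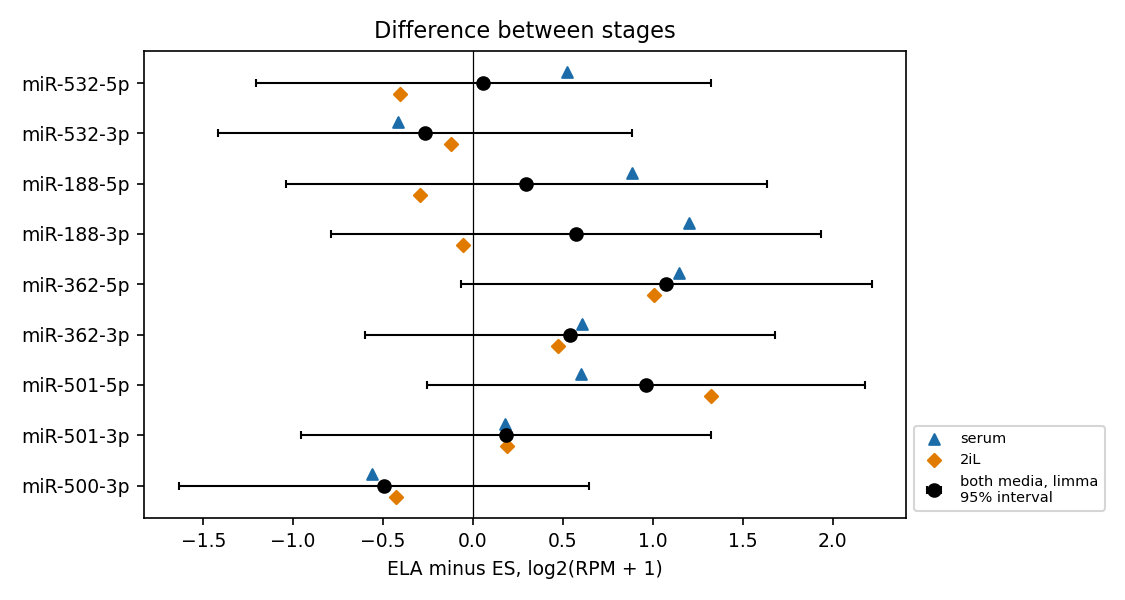
Difference between the stages (ELA minus ES, log2(RPM + 1)) of each member in serum and in 2iL, and the limma estimate over both media with its 95% interval. All 9 intervals include 0, and mmu-miR-362-5p, at 1.15 in serum and 1.01 in 2iL, has the highest estimate at 1.08.

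Of the miRNAs outside the cluster that share a seed with one of the 8 members searched, mmu-miR-329-3p had reads in all 4 libraries. It has the seed of mmu-miR-362-3p and was at 60.1 RPM in ES serum and 129.7 RPM in ES 2iL, and in ELA at 70.3 RPM (serum) and 136.2 RPM (2iL), above mmu-miR-362-3p in every library. By RPM mmu-miR-329-3p was higher in 2iL at both stages, by 2.16-fold in ES cells (1.88 to 2.48) and 1.94-fold in ELA (1.49 to 2.49). mmu-miR-7061-3p, which has the seed of mmu-miR-188-5p, had 0 reads in all 4 libraries, which allows up to 0.372 RPM in ES serum and 5.11 RPM in ELA 2iL.

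The 5 miRNAs with the pattern most like that of mmu-miR-501-3p were mmu-miR-146a-5p, mmu-miR-409-5p, mmu-miR-99b-5p, mmu-miR-203-3p and mmu-miR-21a-3p. Likeness was the Euclidean distance between centred log2(RPM + 1) values over the 4 libraries, and the distances were 1.69, 1.76, 1.93, 2.27 and 2.54 (median over the 300 miRNAs compared 5.20). The nearest, mmu-miR-146a-5p, had 166.8 RPM in ES serum, 17.7 RPM in ES 2iL, and in ELA 223.5 RPM (serum) and 30.6 RPM (2iL). Its serum level was 9.42-fold that in 2iL in ES cells and 7.29-fold in ELA, a smaller ratio than that of mmu-miR-501-3p. mmu-miR-409-5p was 29.9-fold higher in serum in ES cells but 7.68-fold in ELA.

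mmu-miR-532-5p had much closer companions. The 5 nearest were mmu-miR-148a-5p, mmu-miR-106b-3p, mmu-miR-29a-3p, mmu-miR-141-3p and mmu-miR-339-5p, at distances of 0.19, 0.24, 0.25, 0.29 and 0.33 (median 1.48). mmu-miR-148a-5p had a serum over 2iL ratio of 0.951 in ES cells and 1.55 in ELA. No other member of the cluster could enter either comparison apart from these 2 reference arms, since log2(RPM + 1) averages under 5 in the remaining members.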

How the data were processed

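Small RNA libraries were made from total RNA with a TruSeq kit and sequenced on a MiSeq. The authors demultiplexed with CASAVA 1.8, trimmed with Trimmomatic, mapped to mm9 with Bowtie, summarized reads over miRBase 20 with featureCounts and deposited RPM values, 1 column per library (0 columns were left out). Other versions are not given in the sources used here. All values above 0 came out as whole reads once divided by the smallest step of their library (100% of values, tolerance 0.01), and these reads were used. Reads carry no molecular identifiers, and intervals (Wilson, exact Clopper-Pearson) and detection limits (3 reads) cover counting error only.

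Differences used log2(RPM + 1), a pseudocount of 1 RPM that understates changes of low miRNAs. Stage was tested over all 4 libraries with limma 3.58.1 (R 4.3.3), medium as covariate, on miRNAs that reached 10 reads in 2 or more libraries, two-sided, with Benjamini-Hochberg adjustment. Each miRNA leaves 1 residual degree of freedom, and the spread is shared across miRNAs (3.79 prior degrees of freedom). The residual is how far the stage difference disagrees between the media. p-values thus measure this spread and not variation between replicate libraries. edgeR 4.0.16 (quasi-likelihood) and DESeq2 1.42.0 on the recovered reads were alternatives, beside other scalings, pseudocounts and no filter.

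Named miRNAs were all members, mmu-miR-500-5p from the same row, and other miRNAs with a member's seed. Also named were the 5 most like mmu-miR-501-3p, likewise the 5 most like mmu-miR-532-5p, and lists on the X chromosome. The Clcn5 introns were not searched for further miRNA hairpins. Members and lists were chosen with earlier results of these data known. Mature arms were placed by exact match of RefSeq sequences in mm9, and hairpins and Clcn5 by the GENCODE annotation of that build.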

Additional observations from a re-analysis of the deposited data

Results flagged for a closer look

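mmu-miR-532-5p was higher in ELA than in ES cells in serum and lower in 2iL, so the stage difference had opposite signs in the 2 media. On log2(RPM + 1) serum gave 0.52 and 2iL gave −0.40, and the latter less the former was −0.93. By RPM both differences were clear of 0 by counting error, with a log2 interval from −0.69 to −0.13 in 2iL. The signs held under each scaling (0.45 to 0.72 in serum, −0.40 to −0.16 in 2iL). The 2iL value was −0.16 with TMM factors and with totals that leave out the 5 most abundant miRNAs. No counting interval was made for these scalings, so whether the 2iL difference is clear of 0 there is not known. With 1 library per group the difference between the media was not tested, and the limma fit of stage takes it as residual spread.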

How the results depend on the processing

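The direction of mmu-miR-501-3p held under every scaling, pseudocount and sum tried, with a mean log2 difference between −5.06 and −4.36. Grouping by the description field, added after the data had been seen, gave 0.18, since the low libraries then share the stage ELA and no longer the medium. For the cluster share, 2iL over serum in ES cells was 0.370 and became 0.263 with TMM factors, 0.279 with DESeq2 size factors, 0.305 with totals without the 5 most abundant miRNAs, 1.15 without mmu-miR-501-3p and 0.101 without mmu-miR-532-5p. In ELA it was 0.249 and became 0.195, 0.178, 0.630 and 0.0973 under TMM, DESeq2 size factors and the same 2 omissions. The sum without mmu-miR-501-3p, rescaled after the data had been seen, was 0.821 (TMM), 0.872 (DESeq2 size factors) and 0.950 (totals without the top 5) in ES cells, and 0.495, 0.451 and 0.648 in ELA. The median of the 302 miRNAs moved from 0.42 (RPM) to 0.00 (TMM) and −0.02 (DESeq2 size factors). mmu-miR-532-5p moved from −0.22 to −0.63 (TMM) and −0.66 (DESeq2 size factors). No member was called for stage under any of the 8 alternatives (smallest limma adjusted p 0.158, mmu-miR-362-5p with DESeq2 size factors), although calls among all miRNAs ranged from 0 to 99. The DESeq2 test gave mmu-miR-501-5p no adjusted p, so 8 members were assessed there. The stage fit already compares ELA with ES cells within each medium, no block by replicate number could be added because each group has 1 library, and none could be left out. Depth limits the low members in ELA 2iL, where 3 reads equal 5.11 RPM.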

Other observations

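Other miRNAs of the X chromosome gave a background for the cluster. Of 139 listed miRNAs with hairpins only on X and outside the cluster, 59 were tested. Their median difference between the media (2iL minus serum) was −0.37 in ES cells and 0.34 in ELA, beside 0.43 and 0.30 over the 599. Averaged over the stages it was −0.26, with 13 of them lower by 1 or more (log2) and 10 higher, against 15.7% and 24.5% of the 599. The lowest was mmu-miR-741-3p, at −6.15 in ES cells and −4.19 in ELA.

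The cluster of miR-106a, miR-18b, miR-20b and miR-363, a paralogue of the miR-17/92 cluster, had 8 tested arms, with a median difference between the media of −1.22 in ES cells and 0.24 in ELA. Between the stages its median was 1.88, and 7 of 8 arms were higher in ELA by at least 1, beside 11.9% of the 599 miRNAs tested. Of the cluster that runs from miR-322 to miR-450b, 12 of 13 arms were tested, with medians between the media of 0.58 in ES cells and 0.48 in ELA and between the stages of 0.43 in serum and −0.45 in 2iL. The 4 arms of miR-221 and miR-222 had a median between the media of −1.0 in ES cells and 0.39 in ELA, and between the stages of 0.15 in serum and 1.39 in 2iL. These values are descriptions of 1 library per group.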
